A study of Mus musculus with 12 samples.

Results

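Bone marrow of mice without Fancc was compared with marrow of wild-type mice, gene by gene, on 6 of the 12 arrays of the series. The 3 Fancc-/- mice are nullizygous for Fancc and carry intact Fancg, and the 3 controls are wild-type C57Bl/6 mice. The other 6 arrays come from 3 Fancg-/- mice and 3 double knockouts that lack both genes. They entered the comparison through the shared estimate of the spread and through the choice of probe sets and of genes bright enough to test, and they are compared with Fancc-/- in 1 paragraph near the end. Every array holds the RNA of 1 mouse, taken from marrow flushed out of tibia and femur that was neither sorted nor cultured, with 2 µg of RNA as input for the 6 arrays compared. Sex, age, array date and the strain background of the knockouts were not given in the sources used here. Genes were measured as log2 signals on Affymetrix mouse arrays. Each of 18193 genes with a probe set of its own was represented by the probe set with the highest mean over the 12 arrays, and 11908 of them were bright enough to be tested. The arrays of a group are numbered by the replicate number of their mouse. Signals of different genes cannot be ranked against each other, so all comparisons are between arrays for the same gene.

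Fancc encodes a subunit of the Fanconi anemia core complex. This complex attaches ubiquitin to FANCD2 and FANCI, a step in the repair of crosslinks between DNA strands, and its loss in people leads to failure of the marrow. Marrow is the site where red cells, granulocytes, monocytes, platelets and B lymphocytes are made from stem cells. In unfractionated marrow, fewer or more cells of a type and less or more RNA per cell cannot be told apart, and this holds for every gene below.

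The 6 arrays were checked first. Most markers of marrow cells were bright on all of them: S100a8 of neutrophils read 14.13 to 14.22, Mpo of their precursors 13.16 to 13.51, and Alas2, Klf1, Cd79a, Itga2b, Pf4 and Csf1r were above the array median throughout. The probe set of the globin gene Hba-a1 was above the array median on 0 of the 12 arrays (3.54 to 3.78 on these 6). Genes of muscle and liver were dim. Acta1 of muscle read 5.24 to 5.40 and Apoa1 of liver 5.01 to 5.39, both just above the array medians on all 12 arrays, Ckm of muscle read 4.70 to 4.98, and Alb of liver read 4.09 to 4.61 and was above the median on 0 arrays. Genes of stroma and bone were less even. Col1a1 read 5.55 to 6.03 in wild type and 5.56 to 7.27 in Fancc-/-, above the median on all 12 arrays. Cxcl12 read 4.60 to 7.50 in wild type and 5.90 to 6.13 in Fancc-/-, and was above the median on 11 arrays. Over the tested genes, wild-type arrays correlated with each other at 0.986 to 0.993. Fancc-/- replicates 1 and 2 correlated at 0.985, but replicate 3 reached only 0.954 and 0.961 with them and 0.945 to 0.950 with wild type, so it stood apart, and results that rest on it are given without it as well. Fancc itself read 6.05, 5.90 and 6.18 in wild type and 6.17, 6.04 and 5.96 in Fancc-/-, a log2 change of 0.02 ± 0.13 (SE; limma adjusted p = 0.962). Other Fancc probe sets gave 0.46 and 0.16. Where these probe sets lie relative to the disrupted part of the gene is not known, so the signal does not check the genotype. Among the 21 tested genes within 20 array genes of Fancc on either side, 0 passed the limma test, with a median of 0.02. At an unadjusted p below 0.05 were 2 of them. Over all tested genes these shares were 4.53% and 19.8%.

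In Fancc-/- marrow 22 of 30 tested erythroid genes rose, 28 of 38 B cell genes and 10 of 12 MHC class II genes fell, and the metallothionein Mt2 had the largest rise. Of the 11908 genes, 540 (4.53%) passed limma at a Benjamini-Hochberg adjusted p below 0.05: 259 (2.18%) rose and 281 (2.36%) fell. The median rise was 0.87 and the median fall -0.88 on the log2 scale, while all tested genes had a median of -0.01 and quartiles of -0.20 and 0.15. Large changes were mostly falls, since 26 genes fell but 3 rose by more than 4-fold. In all 540 the Fancc-/- arrays lay wholly above or wholly below the wild-type arrays, which held for 24.2% of the tested genes. Genes of 12 lists of marrow lineage markers made up 68 of the calls (28.1% of the 242 tested), and 472 calls (4.05% of 11666) lay outside these lists, with 234 rises and 238 falls. Normalizing the arrays once more to equal distributions gave 365 rises and 252 falls, and centring them on their medians gave 206 and 319, so the balance between directions depends on the scaling.

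**Figure D1:**
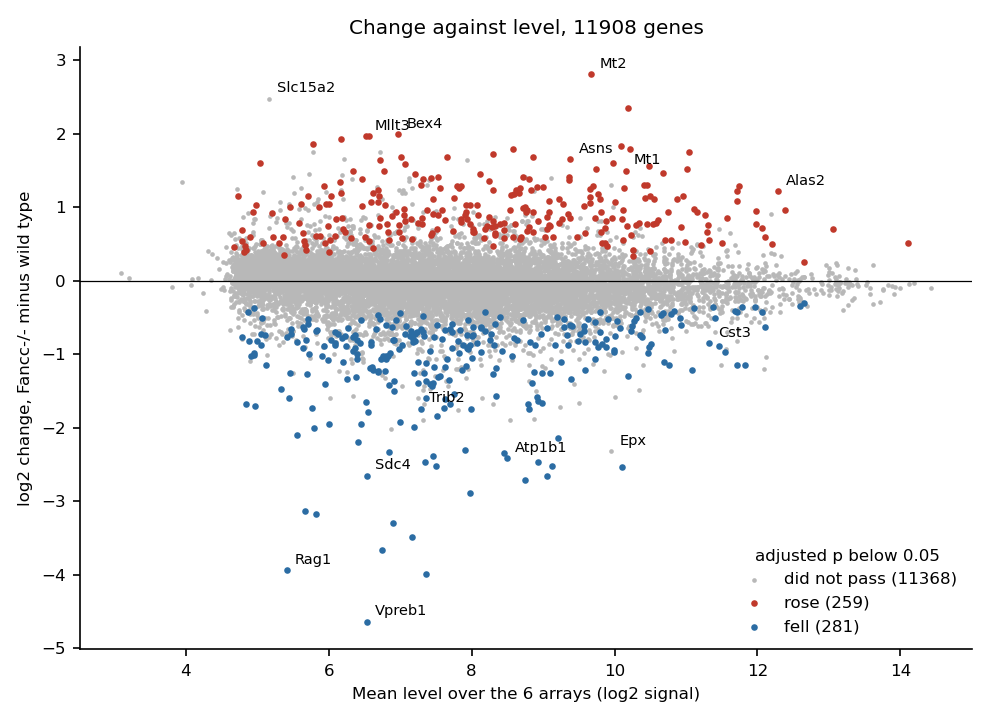
Each point is 1 of the 11908 tested genes, placed by its mean log2 signal over the 6 arrays (horizontal) and its log2 change, Fancc-/- minus wild type (vertical). Red points are the 259 rises and blue points the 281 falls past an adjusted p of 0.05, and grey points did not pass. Mt2 is the highest point and Vpreb1 the lowest, and Slc15a2 and Epx are far from 0 but grey.

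The calls depended on single arrays. Leaving out wild-type mouse 1, 2 or 3 gave 340, 175 and 226 calls, and leaving out Fancc-/- replicate 1, 2 or 3 gave 367, 644 and 563. Of the 540 genes, 161 (83 rises and 78 falls, 124 of them outside the lineage lists) passed in all 6 of these fits and 17 in none. Genes that passed in all 6 are described first below, and for other named genes the arrays whose removal ended the call are given. With the replicate number as a block, 528 genes passed in the model of 12 arrays and 160 in a fit of the 6 arrays alone, against 247 in that fit without the block.

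**Figure D2:**
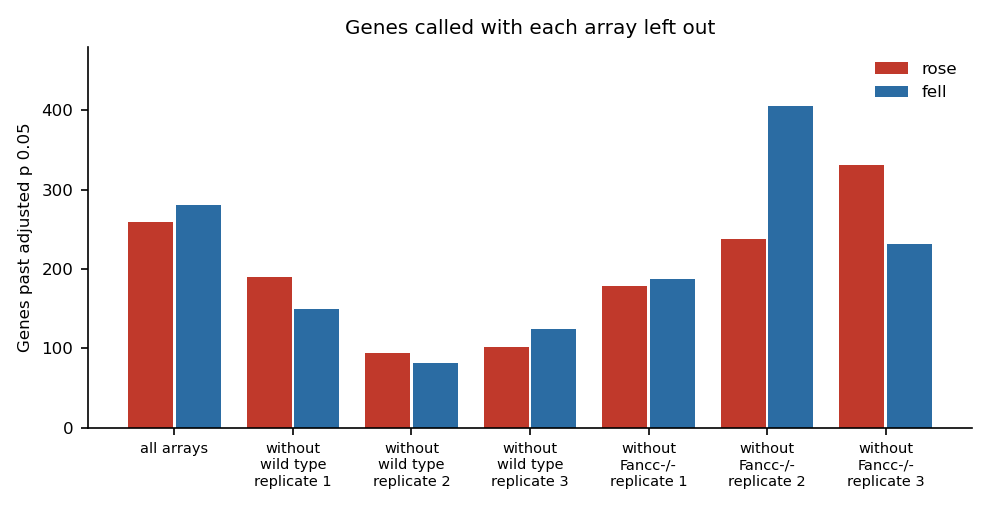
Bars give the number of genes that rose (red) and fell (blue) past an adjusted p of 0.05 with all arrays and with each of the 6 arrays left out. Counts drop to 94 rises and 81 falls without wild-type mouse 2, and falls increase to 406 without Fancc-/- replicate 2.

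Metallothioneins, small cysteine-rich proteins that bind zinc and copper, gave the largest rise. Their genes are switched on through metal response elements, which bind the zinc-sensing factor MTF1, and Mt1 and Mt2 lie side by side on chromosome 8. Mt2 read 7.92, 8.56 and 8.32 in wild type and 11.44, 10.24 and 11.57 in Fancc-/-. The lowest knockout array was thus above the highest wild-type array by more than the spread of the wild-type group, and the change was 2.81 ± 0.28 (7.02-fold; adjusted p = 0.000683). Mt1 read 9.34, 9.50 and 9.38 against 10.99, 10.21 and 11.51, a rise of 1.50 ± 0.26 (2.82-fold; adjusted p = 0.00817). In both genes Fancc-/- replicate 2 was the lowest of the knockout arrays, and both passed in all 6 leave-one-out fits. A second Mt1 probe set gave 1.10 ± 0.23. The promoters of both genes follow, because these genes moved together. They are taken from RefSeq on GRCm38.p6 and run from 250 bases before to 50 bases after the gene start, on the plus strand. Capitals mark matches to the core of the metal response element, TGCACNC or TGCGCNC, on either strand. The first is at chr8:94172368-94172667 and the second at chr8:94178839-94179138.
Mt2: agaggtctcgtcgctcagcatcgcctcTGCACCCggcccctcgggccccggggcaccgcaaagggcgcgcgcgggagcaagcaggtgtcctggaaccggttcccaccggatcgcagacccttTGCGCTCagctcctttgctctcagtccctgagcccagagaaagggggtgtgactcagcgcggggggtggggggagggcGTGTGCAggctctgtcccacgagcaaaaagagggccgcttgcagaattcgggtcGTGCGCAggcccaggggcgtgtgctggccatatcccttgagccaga
Mt1: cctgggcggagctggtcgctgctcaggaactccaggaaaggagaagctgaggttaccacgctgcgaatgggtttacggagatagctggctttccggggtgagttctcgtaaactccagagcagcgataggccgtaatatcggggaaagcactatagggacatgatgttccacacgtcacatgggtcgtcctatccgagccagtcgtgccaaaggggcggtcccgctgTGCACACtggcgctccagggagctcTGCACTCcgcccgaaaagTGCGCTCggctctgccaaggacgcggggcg

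The Mt2 window holds 4 matches and the Mt1 window 3. At least 1 match occurs in 34.9% of the 12298 promoters of tested genes, so a match alone is common, and at least 2 occur in 10.9% of them and in 10.4% of the promoters of the rises. In all 32851 promoters of the RefSeq table these shares were 25.7% for at least 1 match and 7.11% for at least 2. Among promoters of the rises 32.3% held a match, and among those of the falls 32.5%. Of 21 tested members of the metallothionein and zinc transport list, Mt1 and Mt2 rose, the zinc exporter Slc30a4 fell (-0.68 ± 0.17, adjusted p = 0.0462) and the median was 0.05. At an unadjusted limma p below 0.05 were 8 of the 21 (38.1%), against 19.8% of all tested genes. The Slc30a4 call was lost in every leave-one-out fit but that without Fancc-/- replicate 3, with adjusted p of 0.0822 to 0.139, and with the replicate block (adjusted p = 0.0674).

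Other large rises came from genes with unrelated functions. Bex4, of the brain-expressed X-linked family, read 6.10, 5.98 and 5.83 in wild type and 7.92, 7.83 and 8.16 in Fancc-/- (2.00 ± 0.19, adjusted p = 0.000683). All 3 knockout arrays lay within 0.33 of each other, well above wild type. Mllt3, a subunit of complexes that promote transcription elongation, read 5.57, 5.66 and 5.38 against 7.50, 7.27 and 7.75 (1.97 ± 0.20, adjusted p = 0.000683). Its other probe sets gave only 0.30 and 0.64. Abcb4, which moves phospholipids across membranes, read 8.13, 8.04 and 7.91 against 9.92, 9.47 and 9.72 (1.68 ± 0.19, adjusted p = 0.00134). Prxl2a, a peroxiredoxin-like protein, read 9.53, 9.12 and 9.30 against 11.03, 10.58 and 11.76 (1.80 ± 0.26, adjusted p = 0.00323), and its second probe set rose by 1.99. Ces2g, a carboxylesterase, rose by 1.68 ± 0.23 (adjusted p = 0.0028). Cyth3, which activates ARF GTPases, rose by 1.45 ± 0.14 with knockout arrays at 8.96, 8.77 and 8.79 and wild-type arrays at 7.67, 7.36 and 7.14. Tmcc2 (1.52), Cdr2 (1.52), Atp1b2, a β subunit of the sodium pump (1.49), Epdr1 (1.46) and Spire1, which nucleates actin filaments (1.41), also rose and, like the genes above, passed in all 6 leave-one-out fits.

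Armc8 rose by 1.83 ± 0.24 on its brightest probe set (adjusted p = 0.00213), with knockout arrays at 10.94, 10.64 and 11.44 and wild-type arrays at 9.30, 9.05 and 9.19. Its 4 other probe sets gave -0.09 to -0.31 and did not pass. Armc8 is a subunit of a ubiquitin ligase complex, and its direction therefore depends on the probe set. Tjp1, a scaffold of tight junctions, read 5.34, 5.26 and 5.04 in wild type and 8.04, 7.21 and 6.17 in Fancc-/- (1.93 ± 0.39), and its call failed after removal of wild-type mouse 2 or 3 (adjusted p = 0.0699 and 0.0805). Clca3a1 (1.86) failed after removal of wild-type mouse 2 or 3 or Fancc-/- replicate 1 (adjusted p of 0.0624 to 0.0854). Cd59a, which blocks the membrane attack complex of complement, read 7.88, 7.35 and 7.09 against 8.58, 8.94 and 9.97 (1.72 ± 0.39). It failed after removal of wild-type mouse 2 or 3 or Fancc-/- replicate 3 (adjusted p of 0.0626 to 0.126). Neat1, the RNA scaffold of paraspeckles, read 10.06, 9.40 and 9.65 against 10.80, 10.94 and 12.05 (1.56 ± 0.32). Its call failed after removal of wild-type mouse 2 or 3 (adjusted p = 0.0906 and 0.0774), and its other probe set gave 0.04. Casp4, an inflammatory caspase, read 5.75, 6.29 and 6.48 against 7.74, 8.05 and 7.78 (1.68 ± 0.36), and passed only without Fancc-/- replicate 3 when an array was left out (adjusted p otherwise 0.0511 to 0.0803). Col5a1, a chain of type V collagen (1.59), failed after removal of wild-type mouse 3 (adjusted p = 0.0596). Cd5l, secreted by macrophages (1.50), Tlcd4 (1.64) and Ugt8a (1.61) passed in only 1, 1 and 2 of the 6 fits, with adjusted p up to 0.185, 0.114 and 0.0946.

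**Figure D3:**
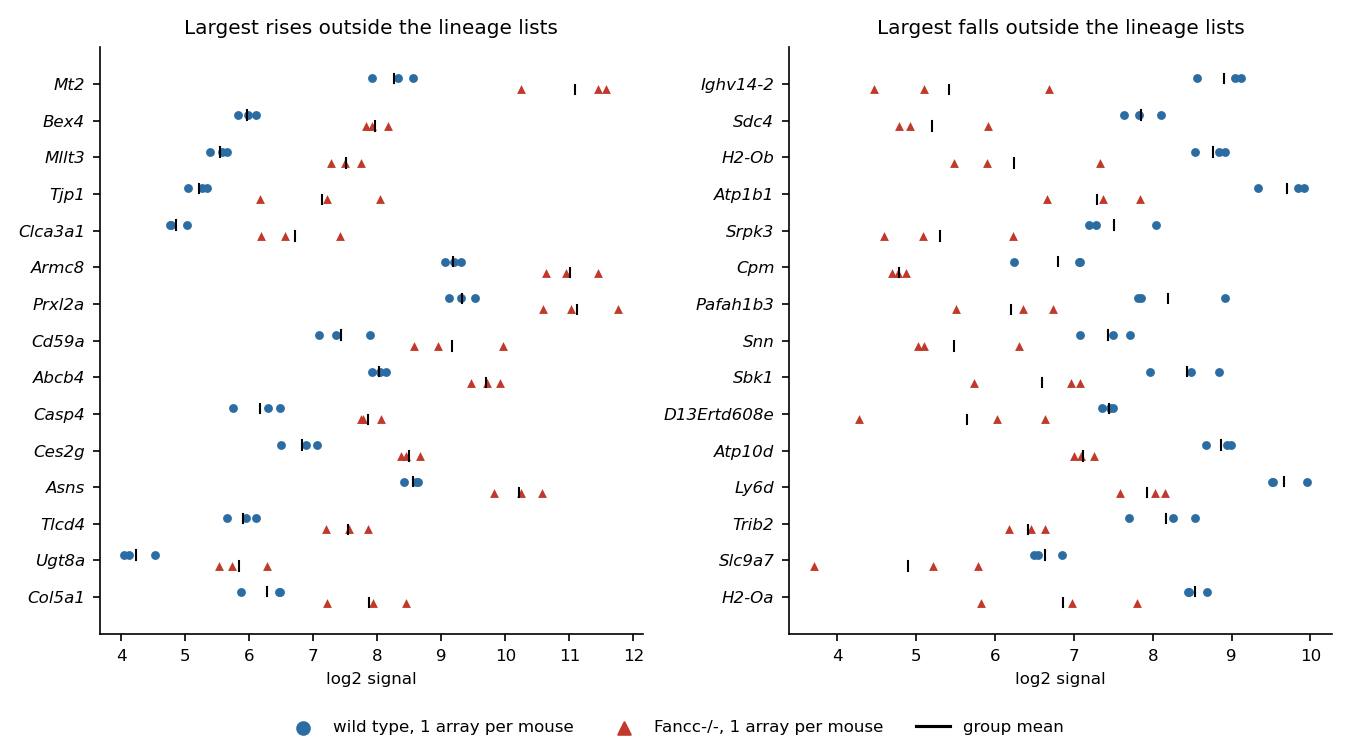
Log2 signals of the 15 largest rises (left) and 15 largest falls (right) outside the lineage lists are shown for each wild-type array (blue circles) and each Fancc-/- array (red triangles), with black ticks at the group means. The groups do not overlap for any gene shown, and the knockout arrays are tight for Bex4 (7.83 to 8.16) and wide for Tjp1 (6.17 to 8.04).

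Several genes of heme formation rose. Heme is made in precursors of red cells by a chain of enzymes that starts in mitochondria with ALAS2 and ends there with ferrochelatase. Of 22 tested members, 9 rose and 0 fell, with a median of 0.72 and array medians of 0.79, 0.91 and 0.51 in Fancc-/- replicates 1 to 3. Alas2 read 11.94, 11.58 and 11.49 in wild type and 13.04, 12.76 and 12.88 in Fancc-/-. Ferrochelatase, Fech, which inserts the iron, rose by 1.29 ± 0.17 with the knockout arrays at 12.10, 12.33 and 12.72 above the wild-type arrays at 11.26, 11.07 and 10.96. The mitochondrial carrier Slc25a39, which imports glutathione, rose by 0.96 ± 0.10 (adjusted p = 0.000683). Its further probe sets gave 1.06, 1.02 and 1.09, each past the test, and 0.43. The last has a plain _at name, without the suffix letter a, s, x or f, and an adjusted p of 0.0639 among such probe sets. Blvrb, a biliverdin reductase (1.13 ± 0.17), and Slc48a1, a heme transporter (1.09 ± 0.17), rose as well. Each of these passed in all 6 leave-one-out fits, while the number of list members that rose was 5 without wild-type mouse 2 and 6 without wild-type mouse 3. The erythroid marker list moved beside them: 22 of 30 members rose and 0 fell, its median was 1.06, and its array medians were 1.29, 1.16 and 0.73 in Fancc-/- and 0.18, -0.01 and -0.16 in wild type. The erythroid count was 11 without wild-type mouse 2 or 3, 13 without Fancc-/- replicate 1 and 14 without replicate 2, at medians of 0.96 to 1.01. Its part in the rises of heme genes was not tested. The Alas2 promoter is shown for its single match to the GATA motif AGATAA (capitals, on the reverse strand), the site type bound by the erythroid factor GATA1, whose gene rose by 1.19 ± 0.20. It lies at chrX:150547167-150547466 on the plus strand of GRCm38.p6, from RefSeq.
Alas2: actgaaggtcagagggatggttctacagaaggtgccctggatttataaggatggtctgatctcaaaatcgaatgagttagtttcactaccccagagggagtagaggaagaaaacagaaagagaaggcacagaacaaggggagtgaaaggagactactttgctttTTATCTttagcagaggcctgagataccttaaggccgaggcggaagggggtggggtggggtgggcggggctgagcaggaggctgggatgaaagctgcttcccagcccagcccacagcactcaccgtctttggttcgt

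A GATA match occurred in 10.4% of promoters of the rises, 8.57% of those of the falls, 6.72% of those of all tested genes and 11.2% of all promoters in the table.

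Late red cell precursors clear their organelles and surplus proteins through ubiquitin, and enzymes of this kind changed in number. Of 24 tested, 11 rose and 2 fell, with a median of 0.58 and array medians of 0.75, 0.58 and 0.60 in Fancc-/-. Ube2o, which tags ribosomal proteins for removal, read 8.87, 8.67 and 8.45 in wild type and 10.14, 10.35 and 9.72 in Fancc-/- (1.41 ± 0.19, adjusted p = 0.00213). Ube2h rose by 0.86 ± 0.11 and Ube2l6 by 1.17 ± 0.17, both in all 6 leave-one-out fits. Further Ube2h probe sets gave only 0.07, 0.22 and 0.29 and did not pass. Rnf10 rose by 0.84 ± 0.11, but a further probe set with a plain _at name read -0.14. The number that rose was 6 without wild-type mouse 2 or 3, and 7 without Fancc-/- replicate 1. For iron uptake, storage and iron-sulfur clusters 4 of 22 rose and 0 fell, with a median of 0.36, and 2 rose without wild-type mouse 2 or 3. Glrx5, needed for iron-sulfur clusters (0.86 ± 0.11), and Tfr2, an iron-sensing receptor of erythroid cells (0.90 ± 0.15), passed in all 6 fits. Isca1 (0.66) failed after removal of wild-type mouse 2 or 3 or Fancc-/- replicate 1 or 2, and Hscb (0.60) without wild-type mouse 2 or 3 or Fancc-/- replicate 1 (adjusted p of 0.058 to 0.158). In the autophagy list 3 of 28 rose (10.7%, against 4.53% of all tested genes called), with a median of 0.16. They were Gabarapl2 (0.73 ± 0.08, in all 6 fits), Ulk1 (0.80) and Wipi1 (0.68). Ulk1 passed in 2 of the 6 fits, with adjusted p up to 0.108, and Wipi1 in 1, with adjusted p up to 0.111. Among 16 tested aquaporins and carbonic anhydrases, which move water and hydrate carbon dioxide, 4 rose: Car1 (1.75), Car2 (0.71), Aqp1 (1.15) and Car3 (1.30). Car3 was lost without wild-type mouse 2 or 3 (adjusted p = 0.0959 and 0.116). Car1, Car2 and Aqp1 also belong to the erythroid marker list and are counted among its rises.

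Amino acid and redox genes showed rises of few members. The shares called were 7.69% for the integrated stress response, 15.4% for glutathione and Nrf2 targets and 14.3% for peroxiredoxin, superoxide and catalase genes. For aldehyde detoxification the share was 5.88%, and over all tested genes it was 4.53%. In the integrated stress response list, whose members are induced when translation initiation is restrained, 2 of 26 rose and the median was 0.21. Asns, which makes asparagine, read 8.61, 8.63 and 8.41 in wild type and 10.57, 10.24 and 9.82 in Fancc-/- (1.66 ± 0.17, 3.16-fold, adjusted p = 0.000828). A second Asns probe set rose by 1.82 ± 0.20. Slc7a5, an importer of large amino acids, read 8.26, 8.28 and 8.12 against 9.23, 9.54 and 8.86 (0.99 ± 0.19, adjusted p = 0.0123), and failed after removal of wild-type mouse 3 (adjusted p = 0.0608). The array medians of the list were 0.36, 0.29 and -0.07, and without Fancc-/- replicate 3 the number that rose was 6. In the glutathione and Nrf2 list 4 of 26 rose and 0 fell, with a median of 0.16, and 2 rose when any array but Fancc-/- replicate 3 was left out. Gstm5, a glutathione transferase, read 7.68, 7.65 and 7.37 against 8.78, 8.86 and 9.15 (1.36 ± 0.14, adjusted p = 0.000828). Gclm, the modifier subunit of the first enzyme of glutathione synthesis, rose by 1.15 ± 0.19, also in all 6 fits. Nqo1 (0.67) passed in none of the 6 fits (adjusted p up to 0.152) nor with the replicate block (0.0561), and Mgst3 (0.79) in 1 (up to 0.132). Prdx2 (0.95 ± 0.13) and Prdx3 (0.72 ± 0.16) were the 2 rises among 14 peroxiredoxin, superoxide and catalase genes, and Prdx3 passed in 2 of the 6 fits, with adjusted p up to 0.11. In aldehyde detoxification, which acts on a source of the crosslinks repaired by the Fanconi pathway, only Aldh1a1 of 17 tested genes passed. It read 9.26, 9.00 and 8.84 against 10.30, 10.48 and 10.06 (1.25 ± 0.19, adjusted p = 0.00517), in all 6 fits, while the list median was -0.05.

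The largest falls outside the lineage lists included membrane proteins and signalling genes. Sdc4, a cell surface proteoglycan, read 7.82, 8.11 and 7.64 in wild type and 4.92, 4.78 and 5.91 in Fancc-/- (-2.65 ± 0.36, adjusted p = 0.00232). A second Sdc4 probe set, with a plain _at name, read -0.27. Atp1b1, another β subunit of the sodium pump, read 9.92, 9.84 and 9.34 against 7.37, 7.84 and 6.66 (-2.41 ± 0.36, adjusted p = 0.00381). Of its 4 further probe sets 3 fell past the test (-1.85, -1.76 and -1.59) and 1, again with a plain _at name, read 0.20. So the β subunits Atp1b1 and Atp1b2 moved in opposite directions on the probe sets used. Cpm, a membrane carboxypeptidase, read 7.07, 7.08 and 6.24 against 4.70, 4.77 and 4.87 (-2.01 ± 0.25, adjusted p = 0.00206). Its knockout arrays were close together near the array medians (4.79 to 4.87), where signals are dim, and its wild-type mouse 3 was lower than the other wild-type arrays. Fancc-/- replicates 1 and 2 were near the array medians for Sdc4 as well. Trib2, a pseudokinase that steers ubiquitination of C/EBP factors, read 8.53, 8.26 and 7.70 against 6.63, 6.46 and 6.18 (-1.74 ± 0.25, adjusted p = 0.00343). Ly6d, a marker of lymphoid progenitors committed to the B lineage, read 9.96, 9.53 and 9.51 against 8.16, 8.03 and 7.59 (-1.74 ± 0.24, adjusted p = 0.00291). Atp10d, a lipid flippase, fell by 1.75 ± 0.22 on the log2 scale, and Srpk3 (-2.20 ± 0.40) and Pafah1b3 (-1.99 ± 0.38) fell too. A second Srpk3 probe set gave -0.69 ± 0.22 and did not pass. On their representative probe sets, all genes of this paragraph passed in all 6 leave-one-out fits.

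Dusp2, a nuclear phosphatase of MAP kinases, read 9.57, 9.72 and 9.81 in wild type and 8.27, 8.32 and 7.78 in Fancc-/- (-1.58 ± 0.22, adjusted p = 0.00269), in all 6 fits. Its relative Dusp8 rose (0.76 ± 0.14) and failed after removal of wild-type mouse 2 (adjusted p = 0.0633). Other falls rested on single arrays. Slc9a7, a sodium-proton exchanger, read 6.85, 6.55 and 6.49 against 5.21, 5.79 and 3.70 (-1.73). Upb1, of pyrimidine breakdown, read 7.83, 7.57 and 7.61 against 6.71, 6.76 and 5.03 (-1.50). D13Ertd608e read 7.50, 7.46 and 7.36 against 6.03, 6.64 and 4.27 (-1.79). In these genes Fancc-/- replicate 3 was far below the others, and without it the changes were -1.13, -0.94 and -1.10, each still past the test. With any 1 wild-type array removed none of the 3 genes passed (adjusted p of 0.1 to 0.14), nor did Slc9a7 and D13Ertd608e without Fancc-/- replicate 1 (0.0565 and 0.06). Upb1 also failed with the replicate block (adjusted p = 0.0588). Snn (-1.95), Sbk1 (-1.84), Ablim1 (-1.43) and Bcl7a (-1.39) failed after removal of wild-type mouse 1 or 2 or Fancc-/- replicate 1 (adjusted p of 0.0508 to 0.118), Sbk1 also without wild-type mouse 3. Gpr171 (-1.60) failed after removal of wild-type mouse 2 (adjusted p = 0.0715), Cxxc5 (-1.40) without wild-type mouse 1 or 2 (0.0516 and 0.0506), and Cdh1, E-cadherin (-1.47), without wild-type mouse 2 or 3 (0.139 and 0.118). Lipo3 (-1.59) passed in 1 of the 6 fits, with adjusted p up to 0.0774.

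B-lineage genes gave the deepest falls. B cells assemble their receptor stepwise, with the recombinase RAG1 and the surrogate light chain (VPREB1, IGLL1) acting in precursors. Vpreb1 read 8.99, 9.30 and 8.27 in wild type and 4.16, 4.16 and 4.31 in Fancc-/-, and Rag1 read 7.84, 7.37 and 6.93 against 3.52, 3.47 and 3.32. In both, the knockout arrays were within 0.20 of each other at the low end of the scale. Fcmr, the IgM Fc receptor, read 10.38, 10.44 and 10.32 against 7.40, 8.99 and 6.79. Spib, a transcription factor of B cells, read 9.82, 9.17 and 9.26 against 6.50, 7.48 and 5.60. For Fcmr and Spib the knockout arrays spread more widely, with replicate 2 the highest and replicate 3 the lowest. Over the B cell marker list 28 of 38 fell and 1, Ighm, rose, with array medians of -2.08, -1.40 and -2.05.

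Genes of signalling below the B cell receptor were next. Of 24 tested members, 10 fell and 0 rose, all 24 had values below 0, and the median was -0.69, with -0.77, -0.40 and -0.75 on the 3 knockout arrays. Blnk, the adaptor that links SYK to its targets, read 9.85, 9.55 and 9.46 against 7.80, 8.22 and 7.84 (-1.67 ± 0.29, adjusted p = 0.00817). Cd72, an inhibitory receptor, fell by 2.30 ± 0.38 on the log2 scale. Malt1, which carries the signal to NF-kB, read 8.47, 8.48 and 8.26 against 7.36, 7.70 and 7.45 (-0.90 ± 0.15, adjusted p = 0.0076), and Ptpn6, an inhibitory phosphatase also abundant in myeloid cells, 10.79, 10.77 and 10.73 against 9.92, 10.19 and 9.89 (-0.76 ± 0.12, adjusted p = 0.00679). These 4 passed in all 6 fits, while the count for the list was 6 without any 1 of the wild-type arrays. Some members of this list are B cell markers themselves, and the part of the B cell list in its fall was not tested. For migration receptors 4 of 14 fell, with a median of -0.61 and all 14 below 0, and 1 or 2 fell when any array but Fancc-/- replicate 3 was left out. Ccr6 read 6.66, 6.64 and 6.64 against 5.29, 5.67 and 4.76 (-1.40 ± 0.23, adjusted p = 0.00687, in all 6 fits). Cxcr5 (-1.65), which guides cells into follicles, S1pr1 (-1.25), which guides their exit from tissue, and the integrin chain Itgb7 (-1.21) passed in 2, 1 and 3 of the 6 fits, with adjusted p up to 0.132, 0.107 and 0.125. Itgb7 was -0.79 without Fancc-/- replicate 3. In the pre-B list 4 of 20 fell (Vpreb1, Igll1, Irf4 and Foxo1), or 2 without wild-type mouse 2, with a median of -0.32. Irf4 read 8.21, 9.02 and 8.32 against 7.14, 6.88 and 6.91 (-1.54 ± 0.25). Igll1 (-2.47) failed after removal of wild-type mouse 2 (adjusted p = 0.0574), and Foxo1 (-0.96) passed in 1 of the 6 fits (adjusted p up to 0.153). In the V(D)J list the lymphoid-specific Rag1 and Dntt (-2.33 ± 0.36) fell, and the other 11 of 13 members, most of which serve end joining in all cells, did not pass. The median of the list was -0.35, and -0.21 without Fancc-/- replicate 3.

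Cd79a, the signalling chain of the B cell receptor, read 10.64, 10.20 and 10.30 against 7.56, 8.28 and 7.73 (-2.52 ± 0.28, adjusted p = 0.0012, in all 6 fits). It was added as a defining marker, after its values were seen. Its promoter is shown as one that serves B cells, with capitals on its single match to the E-box CAGGTG. It lies at chr7:24897247-24897546 on the plus strand of GRCm38.p6, from RefSeq.
Cd79a: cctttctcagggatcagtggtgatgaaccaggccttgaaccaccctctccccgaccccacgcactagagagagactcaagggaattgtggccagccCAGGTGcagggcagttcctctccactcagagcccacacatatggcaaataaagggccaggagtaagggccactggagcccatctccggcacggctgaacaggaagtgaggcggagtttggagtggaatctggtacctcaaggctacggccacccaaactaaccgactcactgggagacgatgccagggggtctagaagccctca

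An E-box match was present in 22.9% of promoters of the falls, 20.5% of the rises, 18.5% of all tested genes and 20.2% of the table. For the EBF1 core CCCNNGGG these shares were 20%, 19.9%, 18.1% and 13.7%. The ETS motif GAGGAAGT was found in 5.36% of the falls, 1.35% of the rises, 3.15% of all tested genes and 3.2% of the table. The shares of the CACCC box CCACACCC were 3.21%, 4.71%, 3.84% and 3.56% in the same order. The antioxidant response element TGACNNNGC gave 15.7%, 13.8%, 14.2% and 12.4%, the glucocorticoid receptor motif AGAACA 14.6%, 19.2%, 13% and 19%, and the E2F site TTTGGCGC 0%, 0.337%, 0.984% and 0.514%. Both strands were searched in windows of 300 bases. The 259 rises had 297 such promoters from 217 genes and the 281 falls 280 from 214 genes. A match is a run of letters and not evidence of binding, and these shares were not tested.

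MHC class II genes, which present antigen on B cells, dendritic cells and macrophages, fell in most cases. Of 12 tested members 10 fell and 0 rose, with a median of -1.18. H2-Ab1 read 10.88, 10.80 and 10.85 in wild type and 10.03, 9.68 and 8.92 in Fancc-/- (-1.30 ± 0.21, adjusted p = 0.00644). H2-Eb1 read 11.77, 11.59 and 11.70 against 10.91, 10.73 and 9.78 (-1.22 ± 0.22, adjusted p = 0.0104). H2-DMb2, of the peptide loading complex, fell by 1.66 ± 0.23 and H2-Ob, which restrains loading, by 2.52 ± 0.43 on the log2 scale. Their patterns differed: Fancc-/- replicate 3 was lowest in all 4, but replicate 2 was between the other knockout arrays for H2-Ab1 and H2-Eb1 and the highest of them for H2-DMb2 (7.97, 8.79 and 7.70) and H2-Ob (5.90, 7.33 and 5.48). These 4 genes passed in all 6 fits. H2-Oa (-1.67) failed after removal of any 1 of the wild-type arrays or Fancc-/- replicate 1 (adjusted p of 0.0539 to 0.0842). The list medians were -0.76, -0.79 and -1.92 on the knockout arrays. The median was -0.78 without Fancc-/- replicate 3, and 4 or 5 members fell when 1 wild-type array was left out. The monocyte, macrophage and dendritic cell list, whose cells also carry class II, had a median of -0.32 with 2 of 26 falls, and the parts of these lists and of the B cell list in the class II falls were not tested.

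Immediate early genes, induced within minutes by stimuli that include tissue handling, were lower in median but with few calls. Of 27 tested, 2 fell (7.41%, against 4.53% of all tested genes called) and 0 rose, 26 had values below 0 and the median was -0.50. Gadd45b read 10.05, 10.23 and 10.50 in wild type and 9.38, 9.17 and 9.03 in Fancc-/- (-1.07 ± 0.16, adjusted p = 0.00389, in all 6 fits). Klf4 read 10.83, 11.84 and 11.32 against 10.15, 10.67 and 9.73 (-1.15 ± 0.27), and failed after removal of wild-type mouse 2 or 3 or Fancc-/- replicate 1 or 3 (adjusted p of 0.0834 to 0.146). Wild-type replicate 1 read -0.50 on the list median, close to the knockout arrays at -0.56, -0.64 and -0.40, and the other wild-type arrays read 0.35 and 0.21. The list median was -0.76 without wild-type mouse 1. The NF-kB and inflammatory cytokine list had the same arrangement, with -0.35, 0.20 and 0.12 in wild type and -0.43, -0.40 and -0.44 in Fancc-/-. Of its 26 members 2 fell (7.69%, again beside 4.53%), Il12a (-0.76) and Cd40 (-1.34). Each passed in 1 of the 6 fits, with adjusted p up to 0.12 and 0.104, and Cd40 was lost with the replicate block (0.054). Rgs2, a brake on G protein signals, was tighter: it read 11.89, 12.11 and 12.08 against 10.98, 11.11 and 11.09 (-0.97 ± 0.09, adjusted p = 0.000683, in all 6 fits). It was the only called member of 16 tested genes induced by glucocorticoids, whose list medians were -0.33, -0.28 and 0.87 on the knockout arrays, so that replicate 3 lay on the other side of 0. Without replicate 3 the number of falls was 3 and the list median -0.29, against 0.13 with it.

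Genes of the pathway to which Fancc belongs did not pass the test. Of 23 tested Fanconi anemia genes 0 passed limma and 4 were at an unadjusted p below 0.05 (17.4%, against 19.8% of all tested genes), with values from -0.37 to 0.34. The smallest p was that of Faap24, a core complex partner, which read 6.92, 6.93 and 6.68 in wild type and 7.25, 7.28 and 7.02 in Fancc-/- (0.34 ± 0.13, adjusted p = 0.165). Homologous recombination and excision repair genes gave 0 of 23, with 3 at an unadjusted p below 0.05, and Rad18, a ubiquitin ligase of stalled forks, read 0.64 ± 0.17 (adjusted p = 0.0583). The p53 targets gave 0 of 24, with 4 at an unadjusted p below 0.05, and array medians of -0.03, -0.02 and 0.44, the last on Fancc-/- replicate 3. Ppm1d, a p53-induced phosphatase, had the smallest p (0.52 ± 0.15, adjusted p = 0.0794). In DNA replication 1 of 36 rose (2.78%, against 4.53% of all tested genes called). It was Orc1 of the origin recognition complex, with 6.65, 6.86 and 6.70 against 7.61, 7.68 and 7.43 (0.84 ± 0.12, adjusted p = 0.00323, in all 6 fits). A second Orc1 probe set gave 0.30 ± 0.20 and did not pass. Mitosis gave 0 of 32, with 2 at an unadjusted p below 0.05.

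With all arrays in the fit, 17 of the 63 process lists held 0 calls by limma. Among their 380 tested members 76 were at an unadjusted p below 0.05, against 19.8% of all tested genes. These lists included the unfolded protein response (0 of 20), heat shock (0 of 17), proteasome (0 of 38), aminoacyl-tRNA synthetases (0 of 30), MHC class I (0 of 15), TGF-beta and BMP signalling (0 of 25) and Polycomb, Trithorax and DNA methylation (0 of 27). Cholesterol and fatty acid synthesis had 13 of 27 members at an unadjusted p below 0.05, 24 of 27 below 0 and a median of -0.25, and Mvd of the mevalonate pathway had the smallest p (-0.71 ± 0.20, adjusted p = 0.0636). Type I interferon genes gave 0 of 25, with 4 at an unadjusted p below 0.05. Their array medians of 0.64 and 0.76 in Fancc-/- replicates 1 and 2 and -0.69 in replicate 3 lay on both sides of wild type (0.15, -0.18 and 0.05). Without Fancc-/- replicate 3, 10 of the 25 rose and 0 fell, with a median of 0.67, while 0 passed limma with any other of the 6 arrays removed. Large families showed both directions: among 222 solute carriers 9 rose and 8 fell (7.66%), and among 72 ion channel genes 1 rose and 4 fell. Without wild-type mouse 2 or 3, 5 solute carriers and 0 or 1 channel genes passed limma. Cytosolic ribosomal proteins gave 2 falls in 41 (4.88%) and respiratory chain subunits 2 rises in 88 (2.27%). Over all tested genes 4.53% passed, with 2.36% falls and 2.18% rises. Immunoglobulin segments were split. Igk read 9.34, 8.74 and 8.98 in wild type and 12.68, 10.50 and 10.92 in Fancc-/- (2.35 ± 0.50), and failed after removal of wild-type mouse 2 or 3 (adjusted p = 0.0959 and 0.0842). Ighm rose by 0.51 ± 0.10 on its brightest probe set, and failed after removal of wild-type mouse 2 (adjusted p = 0.0675). Further Ighm probe sets rose by 1.56 and 0.82, past the test. Those with a plain _at name read -0.21 and 0.06, and the rest -0.06 to 0.27. The variable segment Ighv14-2 fell, with 9.12, 9.04 and 8.56 against 5.10, 6.68 and 4.47 (-3.49 ± 0.64), and failed after removal of wild-type mouse 2 (adjusted p = 0.0536). Immunoglobulin genes share sequence, and binding of 1 segment to the probes of another was not tested.

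**Figure D4:**
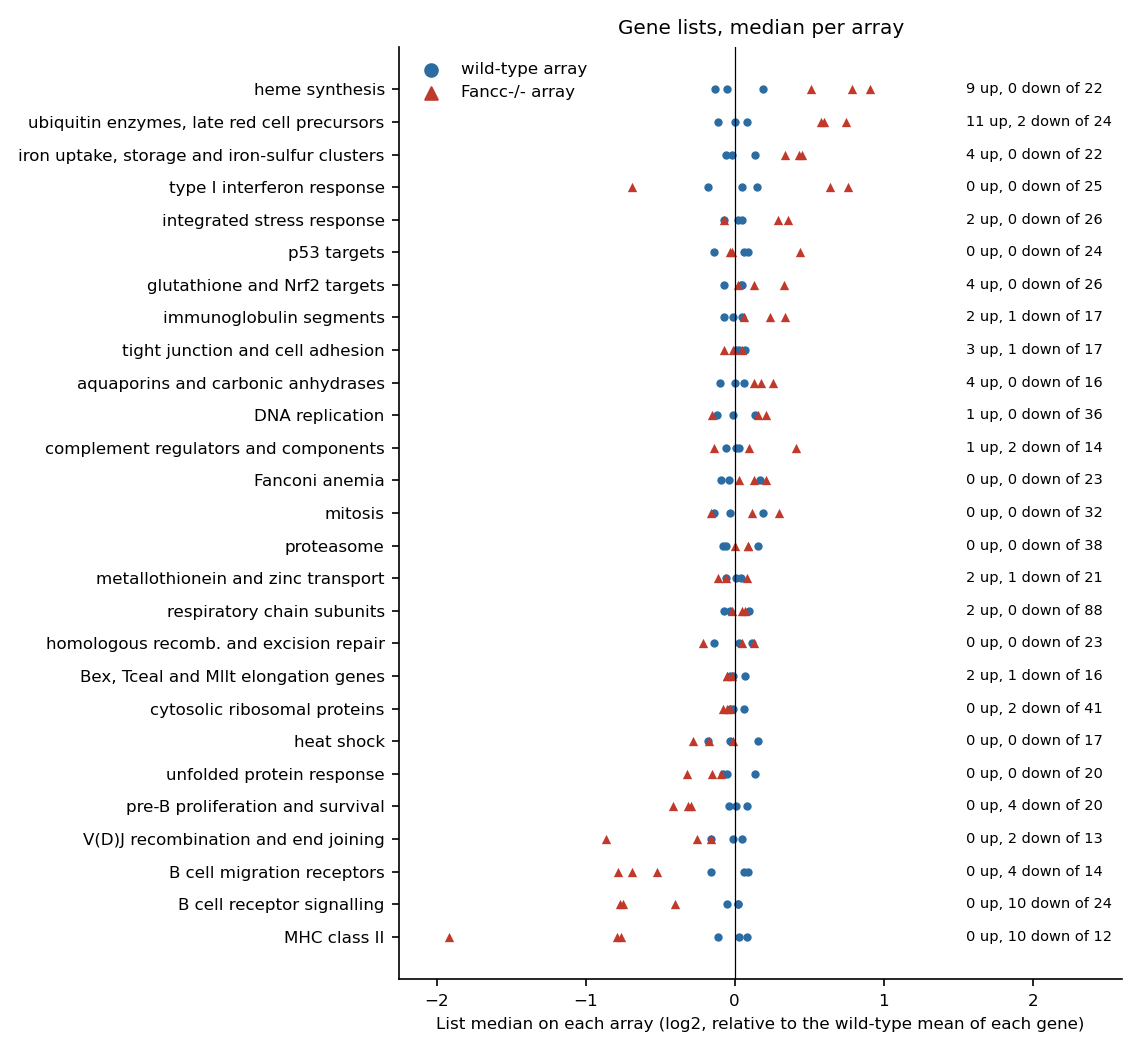
For each gene list, the median log2 value of its tested members, relative to each gene's wild-type mean, is drawn for the 3 wild-type arrays (blue circles) and the 3 Fancc-/- arrays (red triangles). The numbers at the right count members that rose and fell past an adjusted p of 0.05. Knockout arrays separate from wild type for heme synthesis (0.51 to 0.91) and MHC class II (-1.92 to -0.76), and they straddle wild type for the type I interferon response (-0.69 to 0.76).

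The Fancc-/- mice differed among themselves more than the wild-type mice. The range over 3 arrays had a median of 0.38 in Fancc-/- and 0.26 in wild type, and it exceeded 1 for 1086 and 182 genes. Fancc-/- replicate 3 was more than 2-fold from the mean of the other knockout arrays for 683 genes, 460 of them lower, against 283 genes for replicate 1 and 172 for replicate 2. Epx, the eosinophil peroxidase, read 10.98, 11.35 and 11.02 in wild type and 10.76, 10.34 and 5.28 in Fancc-/-. The eosinophil, basophil and mast cell list had array medians of -0.50, -0.47 and -2.03, and 4 of its 19 members fell, with a median of -1.20, or -0.47 without replicate 3. Only 1 or 2 of them fell when a wild-type array or Fancc-/- replicate 1 was left out. Cx3cr1, a chemokine receptor of monocytes, read 9.19, 9.07 and 9.16 against 8.74, 8.39 and 5.25, Nrp1, a coreceptor of semaphorins, 8.64, 8.80 and 8.69 against 8.75, 8.78 and 5.15, and Hnmt, which inactivates histamine, 7.58, 7.42 and 7.15 against 7.92, 7.29 and 4.54. Each of these was far lower on replicate 3 than on the other knockout arrays. For Epx and Cx3cr1 those others also lay below every wild-type array, and for Nrp1 and Hnmt they lay within or close to the wild-type range. Saa3, an acute phase protein, was high on replicate 3 alone, at 6.43, 6.25 and 10.74 against 6.25, 6.47 and 6.63. Other genes set replicate 1 apart: Ighg3, an IgG heavy chain, read 6.42, 6.46 and 6.25 against 10.01, 6.18 and 6.61. For Slc15a2, a peptide transporter, replicates 2 and 3 were high (4.01, 4.09 and 3.66 against 4.07, 6.97 and 8.14), and Sh3d19 went from 7.99 and 6.76 in replicates 1 and 2 to 4.09 in replicate 3 (wild type 5.63, 5.41 and 5.36). None of these 8 genes, chosen for the range over the knockout arrays at a wild-type range under 0.5, passed the test between the groups.

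**Figure D5:**
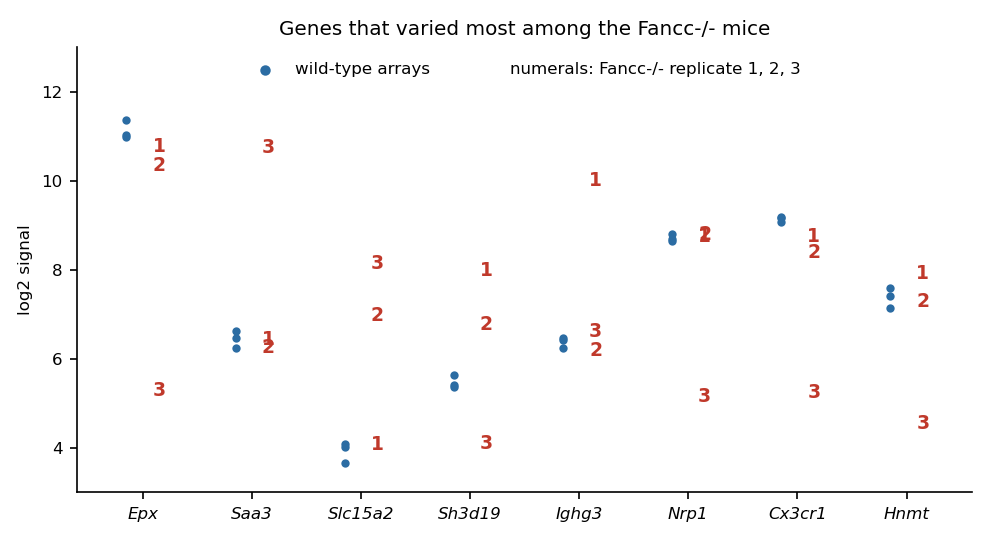
Log2 signals of the 8 genes are shown with the wild-type arrays as blue dots and the Fancc-/- arrays as red numerals that give the replicate. Replicate 3 is far below the others for Epx (5.28), Nrp1 (5.15), Cx3cr1 (5.25) and Hnmt (4.54) and far above them for Saa3 (10.74).

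Probe sets other than the representative one gave a second reading. Of the called genes 260 had 441 further probe sets, 404 of them (91.6%) with the same direction and 145 past the test as well (739 of 20558 probe sets, 3.59%, passed when all were tested). The other 37 had the opposite direction. Among all 8645 further probe sets of tested genes, 71.9% had the direction of their gene's representative. Probe sets with no symbol or several, which name no gene here, passed in 1.37% of 3066 cases.

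The other knockouts were compared with Fancc-/- over the same genes. Against the same wild-type arrays, 6 genes (0.0504%) passed in Fancg-/- and 629 (5.28%) in the double knockout. RNA input was 0.91 µg for Fancg-/- replicate 3 and 2 µg for every other array, and its part in these counts was not tested. Against Fancg-/-, 13 of 11908 genes (0.109%) passed, and against the double knockout 1 (0.0084%). Eif2s3y, a Y-linked gene, passed in both, with means of 3.14 in Fancc-/-, 3.04 in wild type, 7.50 in Fancg-/- and 9.00 where both genes are missing. In comparisons with those groups a difference in sex and one in genotype cannot be told apart, whereas wild type and Fancc-/- were alike in this mark. Higher in Fancc-/- than in Fancg-/- were Bex4 (7.97 against 6.47), Mllt3 (7.50 against 6.22), Armc8 (11.01 against 9.42), Alas2 (12.89 against 12.05), Slc25a39 (12.86 against 12.09), Mkrn1 (12.32 against 11.40), Tent5c (12.26 against 11.40), Ube2h (10.39 against 9.67), 2310022B05Rik (8.39 against 7.62) and Mt2 (11.08 against 9.34). Lower were Rgs2 (11.06 against 11.66) and Cst3, a protease inhibitor (10.90 against 11.66). The adjusted p of these genes ran from 0.0247 for Bex4 and Slc25a39 to 0.05 for Mt2, which was just past the threshold. In the double knockout the means were 10.85 for Mt2, 7.50 for Bex4 and 6.52 for Mllt3, and the differences from Fancc-/- of 0.23 ± 0.28, 0.48 ± 0.19 and 0.98 ± 0.20 did not pass (adjusted p = 0.676, 0.198 and 0.0667).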

How the data were processed

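The authors deposited log2 signals per probe set for 12 arrays, made with RMA and Partek per the submitters' processing notes, which name no version. Background, scaling and summary over probes are thus theirs. The table held 45101 probe sets, 64 of them controls, with array medians of 4.79 to 4.87. Names came from the platform annotation: 34945 probe sets had 1 symbol, 932 several and 9160 none, and only the first were named. A gene was tested if its probe set exceeded the array median on at least 3 arrays.

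Changes were estimated with limma 3.58.1 in R 4.3.3, in 1 model over 12 arrays (8 residual degrees of freedom) with moderated variances and a variance trend, and Benjamini-Hochberg adjustment ran over the 11908 genes. The code was tested on simulated data. Arrays carry no read depth, and their number, 3 per group, limits the precision. Replicates are separate mice. Deviations of same-numbered wild-type and Fancc-/- arrays correlated at 0.16, 0.15 and 0.16. Those of wild-type and Fancg-/- arrays correlated at -0.27, -0.06 and -0.37, and those of the other pairs of groups at -0.14 to 0.20. A fit with the replicate number as a block is given beside results it changes. In the model of 12 arrays the block is 1 effect shared by all groups. The same block in a fit of the 6 arrays alone was chosen after seeing the data.

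Named genes are the 25 largest rises and falls outside the lineage lists, the 10 largest in each direction that passed in all leave-one-out fits, up to 4 calls per process list by smallest p (the member with the smallest p where there was none), the 8 genes of widest knockout range, Fancc, Mt1 and Mt2. Predicted genes were passed over. The markers of the tissue check, Cd79a, and Cst3, Eif2s3y, Mkrn1, Tent5c and 2310022B05Rik of the comparison with the other knockouts lie outside this rule and were named after their values were seen. Members and lists were chosen with earlier results of these data known. The immunoglobulin list was corrected after its values were seen. Lists are described by counts and medians, with no list test. Promoters came from a RefSeq table (GRCm38.p6), which covered 9642 of the tested genes.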

Additional observations from a re-analysis of the deposited data

Results flagged for a closer look

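Probe sets with no gene symbol or with several were not part of the gene comparison. Of 3066 such probe sets bright enough to be tested, 42 (1.37%) passed limma in Fancc-/- against wild type, 19 higher and 23 lower, which is a signal in data that the named genes do not use. They cannot be assigned to a single gene here.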

How the results depend on the processing

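The number of calls (540: 259 rises, 281 falls) stayed within 1.5 times under changes of the filter, the probe set rule, the array scaling, the variance trend and robust variances (399 to 617). Without moderation it was 250 (134 and 116), in a fit of the 6 arrays 247 (129 and 118), and in that fit with the replicate block, an added alternative, 160 (84 and 76). Array weights gave 417 rises. The replicate block in the model of 12 arrays gave 528 calls. Leaving out 1 array gave 175 to 644 calls, 94 to 331 rises and 81 to 406 falls. Of 146 named calls, 73 held without moderation, 77 in the blocked fit of the 6 arrays, 137 with the block in the model of 12 arrays, 80 without wild-type replicate 2 and 126 without Fancc-/- replicate 3. With the block, Cd40, Cox5b, Eif4a2, Hk1, Irak3, Nqo1, Slc30a4, Unc93b1 and Upb1 lost their calls. On probe sets with a plain _at name (no suffix letter a, s, x or f), signs turned for Armc8 (-0.17), Arntl (0.01), Atp1b1 (0.20), Ighm (-0.21) and Rnf10 (-0.14). Values of genes that did not pass also turned: Fancc (-0.03 after median centring, -0.05 to 0.08 with an array left out), and, with an array left out, Sh3d19 (-0.04 to 1.91, lowest without Fancc-/- replicate 1), Hnmt (-1.47 to 0.22), Nrp1 (-1.76 to 0.05) and Saa3 (-0.11 to 2.14), the last 3 turning without Fancc-/- replicate 3. The cause of these shifts was not tested. Of 1197 list medians under the alternatives, 106 moved by more than the spread between replicates. With 3 arrays per group the precision limits what can be detected, and dim probe sets were not tested.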
